A study of Mus musculus with 8 samples.

Results

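Dense clusters of distal open chromatin were examined in mouse bone marrow progenitors. A distal region was a merged ATAC-seq peak on chromosomes 1 to 19 whose midpoint lay more than 3 kb from every transcription start site (TSS) of a protein-coding gene, and a cluster was a chain of 5 or more such regions separated by gaps of at most 10 kb. Peaks were first ranked within each library by their −log10 p, and the top 29829 of each list, the length of the shortest list, were merged over all 8 libraries. This gave 2083 regions in 355 clusters, of 36918 autosomal distal regions in all. The other 34835 distal regions lay in chains of 4 or fewer and served for comparison. The clusters were thus chosen by the −log10 p rank of their peaks, and their number and size are descriptions and carry no test. A library is said to hold a region when at least 1 of its top peaks overlaps it by 1 bp or more. A region that a library does not hold may still be open there under a lower-ranked peak.

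Accessible chromatin was tagged with the Tn5 transposase (ATAC-seq) in sorted cells of 4.5-month-old female mice of the 129Sv4/Jae x B6 strain, with about 10000 cells per reaction. LSK+ cells (lineage-negative, Sca-1-positive and c-Kit-positive) hold the stem cells and multipotent progenitors, and LSK− cells, which lack lineage markers and Sca-1 but carry c-Kit, hold the myeloid and erythroid progenitors. Each was taken from animals that were wild-type (WT) or homozygous for a deletion of Xist (XistΔ/Δ), which gave 4 groups of 2 libraries. The deletion was made by a Cre recombinase under the Vav1 promoter, which acts in blood cells from the fetal stage on, and whether the WT littermates carried Cre or floxed alleles is not given in the sources used here. The labels do not say whether the 2 libraries of a group came from separate mice, so differences are judged only against the spread between these libraries, which may be technical.

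Distal open regions are mostly enhancers, stretches of DNA where transcription factors bind and act on promoters that may lie far away. Where many lie close together, the stretch is often called a locus control region, a stretch enhancer or a super-enhancer, and such stretches are known near genes that set a cell's identity. The locus control region of the β-globin genes and the enhancers of the α-globin genes inside introns of Nprl3 are the classic examples in blood. In progenitors, GATA factors act in the erythroid, megakaryocyte and mast cell lineages, while RUNX, ETS, C/EBP and AP-1 factors act across stem and myeloid cells.

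The following sequences are shown because they carry the contrast described below between regions held by all libraries and those held in 1 cell type. Each is the 201 bases round the strongest summit of its region, on the plus strand of mm10, read from the RefSeq GRCm38.p6 assembly. Capitals mark motif matches on either strand. The letters searched were AGATAA for GATA factors, GAGGAAGT for ETS, TTGCNNCAA for C/EBP, TGTGGT for RUNX and CAGCTG for the E-box, while AP-1 was searched as TGA and TCA parted by 1 base of any kind. Shared regions of 3 of the largest clusters come first. They lay at chr8:120276481-120276681 in an intron of Gse1, at chr1:180387507-180387707 in an intron of Itpkb, and at chr5:64626356-64626556 upstream of Klf3, and all 8 libraries held them.
Gse1, all 8 libraries: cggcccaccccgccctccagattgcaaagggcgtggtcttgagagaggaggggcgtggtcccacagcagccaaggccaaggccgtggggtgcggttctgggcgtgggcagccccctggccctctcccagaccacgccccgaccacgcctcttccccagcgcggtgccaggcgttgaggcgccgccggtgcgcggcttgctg
Itpkb/Stum, all 8 libraries: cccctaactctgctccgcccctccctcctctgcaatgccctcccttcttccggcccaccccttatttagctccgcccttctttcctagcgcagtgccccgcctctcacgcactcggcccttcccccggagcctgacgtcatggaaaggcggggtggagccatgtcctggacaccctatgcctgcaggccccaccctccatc
Klf3, all 8 libraries: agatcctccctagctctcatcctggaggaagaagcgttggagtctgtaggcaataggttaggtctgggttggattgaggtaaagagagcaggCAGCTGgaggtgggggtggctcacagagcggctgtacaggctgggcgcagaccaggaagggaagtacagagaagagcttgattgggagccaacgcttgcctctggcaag
The next 4 were held by all 4 LSK− libraries and no LSK+ library. They lay at chr5:64567941-64568141 in the same Klf3 cluster, at chr16:34031714-34031914 in an intron of Kalrn, at chr11:32245691-32245891 in an intron of Nprl3 and at chr9:90250533-90250733 in an intron of Tbc1d2b.
Klf3, LSK−: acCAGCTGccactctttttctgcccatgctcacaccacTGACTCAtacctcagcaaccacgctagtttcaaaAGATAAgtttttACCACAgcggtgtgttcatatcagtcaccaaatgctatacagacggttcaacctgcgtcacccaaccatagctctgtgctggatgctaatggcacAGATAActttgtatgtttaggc
Kalrn, LSK−: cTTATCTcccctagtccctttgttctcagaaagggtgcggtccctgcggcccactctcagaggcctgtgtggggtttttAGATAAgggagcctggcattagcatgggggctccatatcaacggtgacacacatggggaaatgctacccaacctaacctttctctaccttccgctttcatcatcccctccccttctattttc
Nprl3, LSK−: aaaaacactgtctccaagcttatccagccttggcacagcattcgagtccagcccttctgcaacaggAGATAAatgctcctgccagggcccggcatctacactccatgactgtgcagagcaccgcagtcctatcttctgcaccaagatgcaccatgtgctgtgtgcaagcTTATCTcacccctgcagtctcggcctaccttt
Tbc1d2b, LSK−: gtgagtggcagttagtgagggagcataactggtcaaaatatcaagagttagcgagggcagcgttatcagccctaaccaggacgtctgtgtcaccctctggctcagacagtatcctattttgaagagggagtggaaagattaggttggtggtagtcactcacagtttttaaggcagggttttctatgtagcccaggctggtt
The last 4 were held by all 4 LSK+ libraries and no LSK− library. They lay at chr8:122331251-122331451 in an intron of Zfpm1, at chr4:101159489-101159689 in an intron of Jak1, at chr2:167363427-167363627 between genes near B4galt5 and at chr2:152349893-152350093 in a noncoding gene of the Nrsn2 cluster.
Zfpm1, LSK+: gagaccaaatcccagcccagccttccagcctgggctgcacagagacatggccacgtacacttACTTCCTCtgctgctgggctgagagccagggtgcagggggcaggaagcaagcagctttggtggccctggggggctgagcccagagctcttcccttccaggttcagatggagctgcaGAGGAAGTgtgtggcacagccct
Raver2/Jak1, LSK+: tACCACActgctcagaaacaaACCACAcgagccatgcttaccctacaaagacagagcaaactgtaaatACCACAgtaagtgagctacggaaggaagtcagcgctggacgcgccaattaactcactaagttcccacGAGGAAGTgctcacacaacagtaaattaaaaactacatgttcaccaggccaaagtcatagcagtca
B4galt5, LSK+: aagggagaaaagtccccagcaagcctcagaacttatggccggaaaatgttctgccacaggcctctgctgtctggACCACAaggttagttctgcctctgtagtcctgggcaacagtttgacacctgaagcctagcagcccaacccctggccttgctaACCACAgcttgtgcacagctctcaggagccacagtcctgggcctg
Nrsn2, LSK+: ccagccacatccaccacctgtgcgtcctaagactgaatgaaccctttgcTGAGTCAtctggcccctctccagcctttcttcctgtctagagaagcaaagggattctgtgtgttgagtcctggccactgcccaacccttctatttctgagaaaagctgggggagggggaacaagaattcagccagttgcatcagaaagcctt
The windows at Klf3 (LSK−), Kalrn and Nprl3 hold 2 GATA matches each, while that at Tbc1d2b holds no match. Of 7 LSK− windows read in this way, 4 hold a GATA match, and those without are at Tbc1d2b, the β-globin cluster and Zfpm1. In the wider 301-base windows used below, the Zfpm1 region holds 1 GATA match. The other β-globin cluster regions held by LSK− libraries alone, none of them by all 4, hold 3, 1 and 3 in such windows. Of 5 LSK+ windows, 0 hold a GATA match and 4 a RUNX or ETS match, the exception being Nrsn2 with an AP-1 match. RUNX matches also lie in the LSK− windows at Klf3 and Zfpm1. Over all cluster regions held by 1 cell type alone, RUNX was in 42% of the LSK− and 33.9% of the LSK+ ones. The windows shown were picked from those read. The windows at Klf3 (LSK−), the β-globin cluster, Nprl3, Zfpm1 and Raver2/Jak1 were read after their values were seen.

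The lists held 29829 to 91590 peaks on these chromosomes and X. The background pileup ran from 0.482 to 3.87 fragments. It is the most common background value among the peaks of a list and serves as a proxy for depth. When libraries with the same number were paired, XistΔ/Δ was deeper than WT within a cell type in 4 of 4 pairs, and LSK− was deeper than LSK+ within a genotype in 4 of 4. Replicate number also marks the sequencing platform (an MGISEQ instrument for replicate 1, a NovaSeq for replicate 2). At Xist, the targeted gene, each of the 4 WT libraries had a deposited peak within 3 kb of the TSS, against 1 of the 4 XistΔ/Δ libraries. That library, labelled LSK− XistΔ/Δ replicate 2, had a peak at percentile 26.9 of its list against 51.2 to 80.6 in WT. It goes against its label there, and the differences and counts over all clusters are given with and without it. Within LSK− cells it is 1 of only 2 XistΔ/Δ libraries, so genotype values there rest on it. Top peaks lay at the promoters of Kit, Cd34, Myb, Spi1 and Runx1 in 8 of 8 libraries, and of Ptprc in 7. No library had one at Ly6a, which encodes Sca-1, so the gate itself could not be read from these lists. Of the 8 genes of mature lineages reported, Cd3e, Cd4, Cd8a, Ms4a1, Ly6g and Ncr1 had none in any library, while Siglech had one in 5 and Itgam in 4. Of the genes of other tissues, Alb, Myh6 and Krt5 had none, whereas Col1a1 and Cdh5 had a top peak in all 8, Pecam1 in 7 and Neurod1 in 6.

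The clusters were short stretches with few regions. Of the 355, 195 had exactly 5 regions, 92 had 6, 37 had 7, and 13 had 10 or more, up to 15. Their spans ran from 8.887 to 79.899 kb with a median of 25.4 kb, and regions covered a median of 13% of a span. The clusters held regions in introns in 47.7% of cases, in exons in 3.02%, inside noncoding genes in 10.8% and between genes in 38.5%. Among the other distal regions these shares were 48.9%, 4.06%, 7.46% and 39.5%. Clusters occurred on every autosome, from 3.85% of the distal regions of chromosome 14 to 8.90% of those of chromosome 15. Within a span, 24 clusters also had a TSS-proximal region. A region in a cluster was about as wide as another distal region, with medians of 566 and 562 bp.

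A cluster was rarely held as a block. The most fully held cluster, 5 regions 51091 bp from Lyst, a regulator of lysosome size, was held 5, 5, 5 and 5 times in LSK+ and 4, 4, 3 and 5 times in LSK− libraries (WT replicates 1 and 2, then XistΔ/Δ replicates 1 and 2, the order used from here on), 90% in all. In 247 of the 355 clusters at least 1 region was held by all 8 libraries, but in 0 were all regions held by all 8, and 273 had a region held by a single library. Of the 2083 regions, 414 (19.9%) were held by all 8 libraries and 470 (22.6%) by 1, against 14.8% and 25.7% of the other distal regions. The share of region and library combinations that were held rose from 46.5% for isolated regions to 48.7% in chains of 4, and lay between 50.9% and 52.9% in chains of 5, 6, 7 and 8 or more. Just outside the threshold, 509 chains of 4 regions were held to 48.7%, and just inside it the 195 chains of 5 were held to 50.9%. The best peak of a held cluster region had a median percentile of 37.9 to 46.6 within its list, against 35.9 to 41.3 for other distal regions, a description only, since the same ranks chose the peaks. The local background under cluster peaks was also higher, at a median of 2.23 to 3.89 times the library's own background against 1.42 to 2.14 times at other distal peaks. MACS2 takes that background partly from the 10 kb round a peak in the same library, and its part in the ranks was not tested.

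Gene bodies overlapped 218 clusters, with 235 distinct protein-coding genes, and the other 137 clusters overlapped none, of which 72 lay over a noncoding gene and 65 over no annotated gene. The cluster with most regions, 15, lay over 68697 bp of Gse1 (chr8:120276108-120344804, also inside the predicted gene Gm20388), whose product is a subunit of a histone deacetylase complex. Its regions were held 6, 8, 7 and 9 times in LSK+ and 10, 10, 10 and 8 times in LSK− libraries, so the cell types overlapped at 8 and 9. In it, 4 regions were held by all 8 libraries, 2 by all 4 LSK+ and no LSK− library, and 1 by 3 LSK− libraries and no LSK+ library. A second cluster of 6 regions lay further along the same gene. Ugcg, the glucosylceramide synthase, had 14 regions, with 0 held by all 8 libraries, and was held 1 to 7 times. Sfi1, a centrin-binding centrosome protein, had 13 regions, and there the local background reached 25.3 times that of the library, the highest among all clusters.

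Others of the 20 largest clusters lay at genes of varied function. Elmo1, which activates Rac in engulfing and migrating cells, had 11 regions held 4 to 7 times. Itpkb, the kinase that makes inositol tetrakisphosphate and shares its cluster with Stum, had 11 regions held 3 to 8 times, and replicate 2 was the higher library of each of its 4 groups. Its shared region printed above lay at percentile 93.3 or higher in every list, where 100 is the strongest peak. Cmip had 11 regions, with 4, 3, 4 and 3 held in LSK+ libraries and 5, 5, 5 and 7 in LSK− libraries, and these did not overlap. Dnajb12 (10 regions), Ago2 (10), the slicing enzyme of RNA interference, and Plekho2 (9) were among the most fully held, at 6 to 8, 5 to 9 and 6 to 9 regions per library. The cluster between Nanos3 and Zswim4 covers the miR-23a, miR-27a and miR-24-2 hairpins, which are processed from 1 transcript in myeloid cells, and its 10 regions were held 4 to 7 times. Btn1a1 (10 regions), Iqsec1 (9) and the stretch 79359 bp from Serbp1 that lies over the noncoding gene A430010J10Rik (9) were each held more often in every LSK− than in every LSK+ library.

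**Figure D1:**
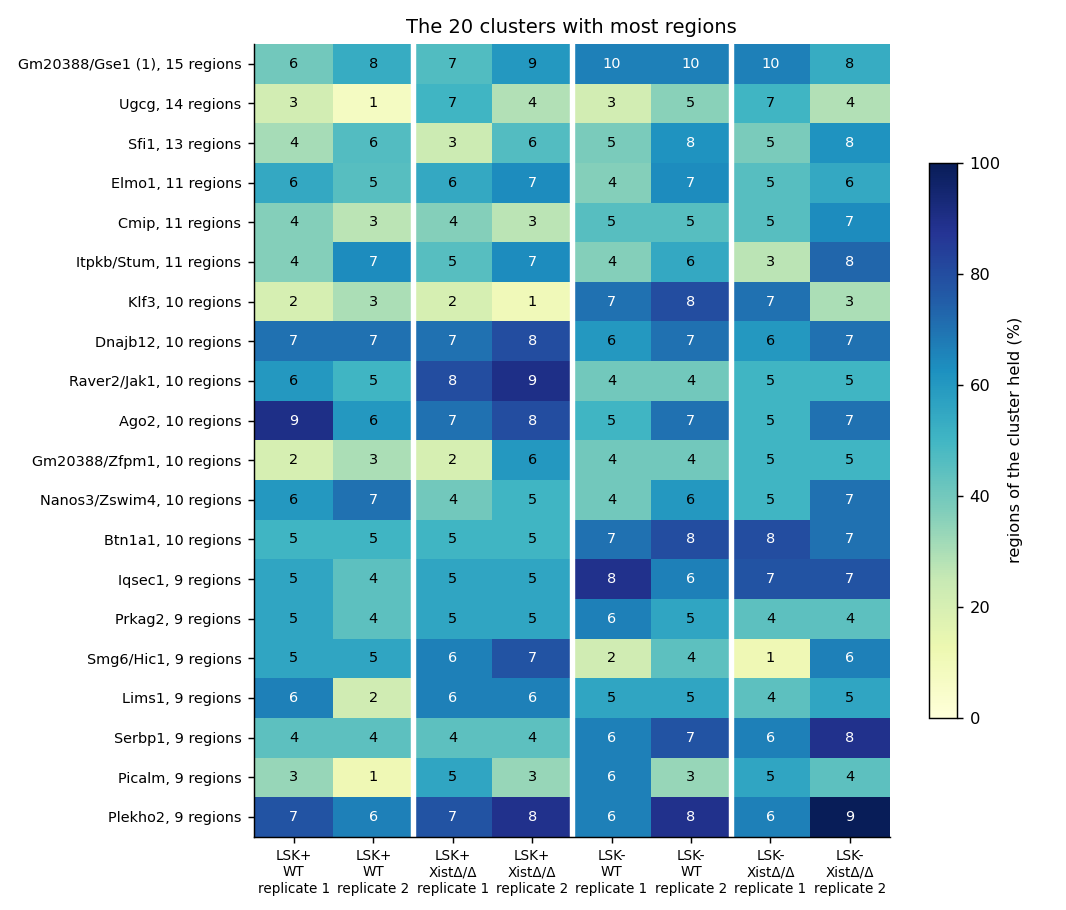
Regions held in the 20 clusters with most regions, 1 row per cluster and 1 column per library. The number in a cell is the count of regions held and the colour is the percent of the cluster's regions. The Klf3 row is held to 7, 8, 7 and 3 regions in LSK− and 1 to 3 in LSK+ libraries, while the Dnajb12 row is nearly even.

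Libraries held between 47.8% and 58.5% of all cluster regions. Of the 2083, the LSK+ libraries held 996, 1005, 1032 and 1096 and the LSK− libraries 1038, 1141, 1099 and 1218. The means of LSK+ WT, LSK+ XistΔ/Δ, LSK− WT and LSK− XistΔ/Δ were 1000.5 ± 6.36, 1064 ± 45.3, 1089.5 ± 72.8 and 1158.5 ± 84.1 regions (SD, n = 2 each). LSK− thus held more than LSK+ in 4 of 4 pairs, by a mean of 4.40 percentage points (2.62 in replicate 1, 6.19 in replicate 2), against a pooled SD of 2.89 points. The two-sided exact permutation test within genotype gave p = 0.0556, the smallest that 36 assignments allow, and 0.222 after Benjamini-Hochberg adjustment over 4 tests. XistΔ/Δ held more than WT in 4 of 4 pairs, by 3.18 points (2.33 and 4.03 in replicates 1 and 2), with an exact p of 0.222 (adjusted 0.444). Without the library labelled LSK− XistΔ/Δ replicate 2 these differences were 3.77 and 2.21 points in the same directions. The clusters were chosen from the same top peaks that these tests count, so the tests are not independent of that choice. Of all clusters, 186 had 5 or more regions held by any LSK− library and 139 by any LSK+ library. The same limit applies to the pairs above and to the surplus below. Neither difference in regions held passed 0.05, which no such test with these 8 libraries can. Both directions depended on the processing. LSK+ was higher by 6.34 points with the top 14914 peaks a list and by 1.72 points when holding needed 50% cover, and XistΔ/Δ was lower than WT (−2.69 points) when peaks were ranked by fold.

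Depth moved with these numbers. Among the replicate 1 libraries the background pileup was 1.16, 1.47, 1.82 and 3.87 fragments where 996, 1038, 1032 and 1099 cluster regions were held. Among the replicate 2 libraries it was 0.482, 0.962, 0.992 and 1.18 fragments where 1005, 1096, 1141 and 1218 were held. Deeper libraries of a platform thus held more cluster regions, apart from 1 neighbouring pair, although all lists had been limited to the same number of peaks, and the part of depth in the differences was not tested.

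Holding of other distal regions did not follow the same order. Libraries held 43.3% to 50.5% of them, and the cluster share less the other distal share was −1.42, 4.97, −0.968 and 7.00 points for LSK+ and −0.574, 10.1, 4.18 and 13.6 points for LSK−. All 4 replicate 2 values lay above all 4 replicate 1 values, whereas neither the genotypes nor the cell types separated. The surplus was lower in LSK+ than in LSK− by 4.42 points (exact p = 0.333, adjusted 0.444). It was higher in XistΔ/Δ than in WT by 2.69 points (exact p = 0.5, adjusted 0.5). Each was seen in 4 of 4 pairs and lay within the pooled SD of 6.19 points. That SD, like the pooled SD above, is taken between replicates 1 and 2 and so includes the difference between platforms. With replicate as a block, each exact p was 0.125, the smallest it allows. Without the library labelled LSK− XistΔ/Δ replicate 2 the differences in surplus were −2.85 points for LSK+ less LSK− and 0.763 points for XistΔ/Δ less WT. Without LSK− WT replicate 1 the latter turned to −0.196 points.

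**Figure D2:**
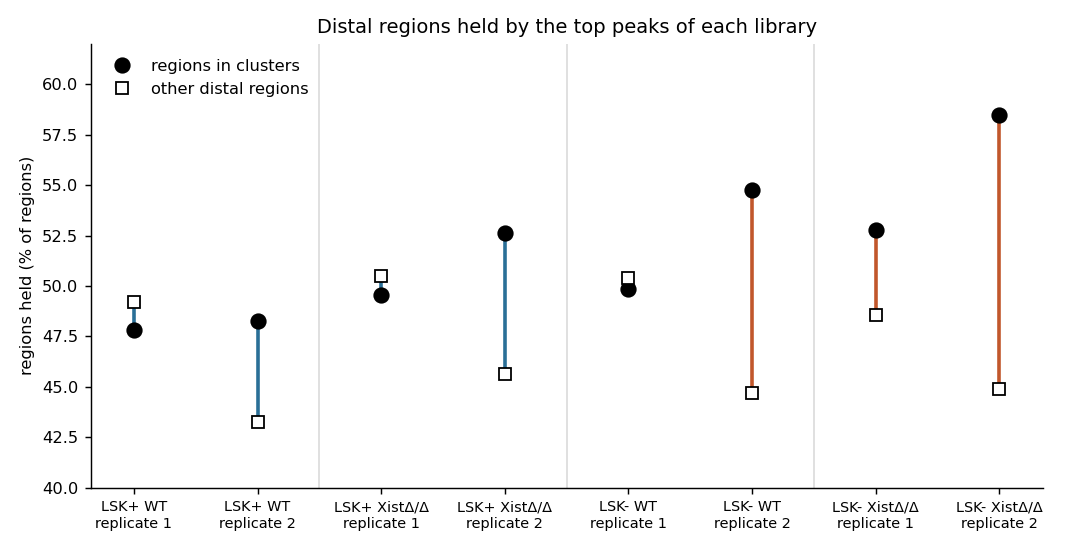
Percent of regions held by each library (y axis, starting at 40%), for the 2083 regions in clusters (filled circles) and the 34835 other distal regions (open squares). The colour of the line joining them marks LSK+ (blue) or LSK− (orange), and the wide gaps fall in replicate 2, up to 13.6 points.

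Cell types separated without overlap at 25 clusters. In 6 of 355 (1.69%) the lowest of 4 LSK+ libraries held more regions than the highest of 4 LSK− libraries, and in 19 (5.35%) the reverse was found. The differences in the mean share of regions held ran from 18.8 to 60 points in the first direction and from −18.2 to −60 points in the second. Chains of 4 regions, just outside the rule, gave 3.14% and 6.09%. Because regions were merged over all 8 lists, a stretch could reach 5 regions through the cell type where it is higher. Just 1 of the 6 had 5 or more regions held by any LSK− library, and 3 of the 19 had 5 or more held by any LSK+ library, so the contrast at the rest is in part set by how clusters were chosen. Over all 355 clusters these numbers were 186 and 139. Replicate 1 was above replicate 2 in every library at 2 clusters and below it at 9. Leaving out a library changes the clusters, and with 1 library fewer on 1 side a separation without overlap is easier to reach. Without the library labelled LSK− XistΔ/Δ replicate 2 the numbers were 13 and 30 of 306 clusters. Without LSK+ WT replicate 2 the LSK+ number was 12 of 296.

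At clusters held more in LSK+ cells, the widest contrast lay 29672 bp from P2ry2, a receptor for extracellular ATP and UTP. Its 5 regions were held 5, 4, 5 and 5 times by LSK+ against 1, 2, 1 and 3 times by LSK− libraries. A single region there was held by all 8 libraries, and each of the other 4 was held by more LSK+ than LSK− libraries. Nrsn2 followed with 4 regions in each LSK+ library and 1 to 3 in LSK− libraries. The cluster near B4galt5, which makes lactosylceramide, was held to 4 or 5 of 6 regions in LSK+ and to 2 in every LSK− library. Cldn4, a tight junction protein, had 3 or 4 of 5 against 2 in every LSK− library, Lrrc75a had 4 against 2 or 3, and Lrp1, an endocytic receptor, had 4 or 5 of 8 against 3.

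Among the clusters held more in LSK− cells, the widest contrast lay at Kalrn. In this gene, which encodes a guanine nucleotide exchange factor, 5 intronic regions were held 1, 2, 1 and 2 times in LSK+ libraries against 5, 5, 5 and 3 in LSK− libraries, a difference of −60 points. A cluster at chr7:103859006-103877597, between the embryonic β-globin gene Hbb-y (5789 bp away) and Olfr66, lies where the β-globin locus control region is known to be. Every LSK+ library held 1 of its 5 regions, and it was the same region that all 8 libraries held. The LSK− libraries held 4, 3, 5 and 2, the last being the one with a peak at Xist. Rbm20, a splicing factor, had 0, 1, 0 and 0 of 7 regions in LSK+ and 4, 2, 5 and 3 in LSK−. Of these regions, 6 were held by LSK− libraries alone. Ikzf1, which encodes the lymphoid and erythroid regulator Ikaros, had 1, 2, 1 and 1 of 5 against 3, 4, 3 and 3. Next by size of the difference, among the 8 widest of the 19, were a stretch over the noncoding gene Lncpint 199645 bp from Klf14 (−41.7 points), Nln (−40.0), Tbc1d2b (−37.5) and Inpp5b (−37.5).

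**Figure D3:**
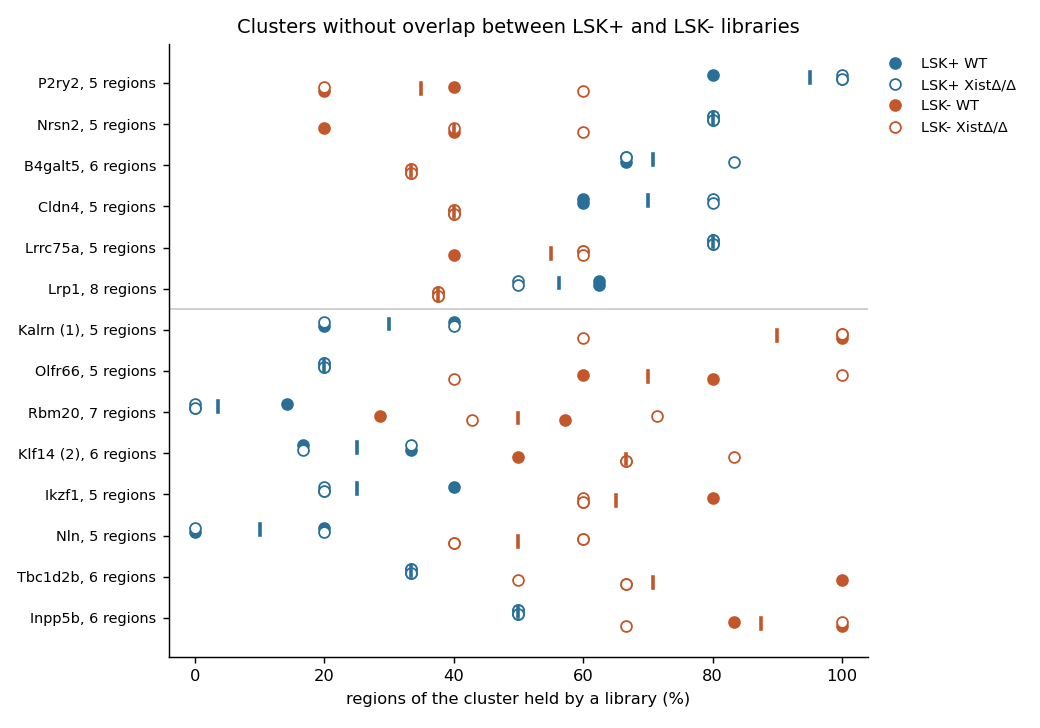
Percent of a cluster's regions held by each library, for the 6 clusters with LSK+ above LSK− (top) and the 8 with the widest LSK− excess (below the line). Filled circles are WT, open circles XistΔ/Δ, blue LSK+, orange LSK− and vertical ticks the mean of 4 libraries. In no row do the blue circles overlap the orange ones, and at Kalrn the means stand at 30% and 90%.

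Some clusters held regions of both cell types side by side. At Zfpm1, which encodes the GATA1 cofactor FOG-1, 10 intronic regions were held 2, 3, 2 and 6 times in LSK+ and 4, 4, 5 and 5 in LSK− libraries, so the counts overlapped. Within it, 1 region (chr8:122331070-122331626) was held by all 4 LSK+ and no LSK− library and carried 2 ETS matches, and another before it (chr8:122321377-122322496) was held by all 4 LSK− and no LSK+ library. Nprl3 showed the same arrangement over 18364 bp, with the α-globin gene Hba-x 19646 bp beyond. Its region at chr11:32245372-32246085 was held by all 4 LSK− libraries alone and the next, at chr11:32247064-32247811, by all 4 LSK+ libraries alone. LSK+ libraries held 2, 1, 1 and 2 of the Nprl3 regions, and LSK− libraries 3, 4, 4 and 2. At Smg6/Hic1, which also covers the miR-212 and miR-132 hairpins, 2 of 9 regions were held by all 4 LSK+ libraries alone, with 5, 5, 6 and 7 held in LSK+ and 2, 4, 1 and 6 in LSK−.

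The stretch 176649 bp upstream of Klf3, a repressor that acts in erythroid maturation, had the widest contrast among the 20 largest clusters. Of its 10 regions, LSK+ libraries held 2, 3, 2 and 1 and LSK− libraries 7, 8, 7 and 3, which met at 3. The library labelled LSK− XistΔ/Δ replicate 2 was the low one. No LSK+ library held more than 3 of the regions, and the stretch reached 5 only through LSK− libraries. Its contrast is thus in part set by how clusters were chosen, and its make-up was read after these values were seen. Within the cluster, 6 regions were held by 3 or 4 LSK− libraries and by no LSK+ library, and all 6 held at least 1 GATA match in the 301 bases round their summits. None of the other 4 regions held one.

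**Figure D4:**
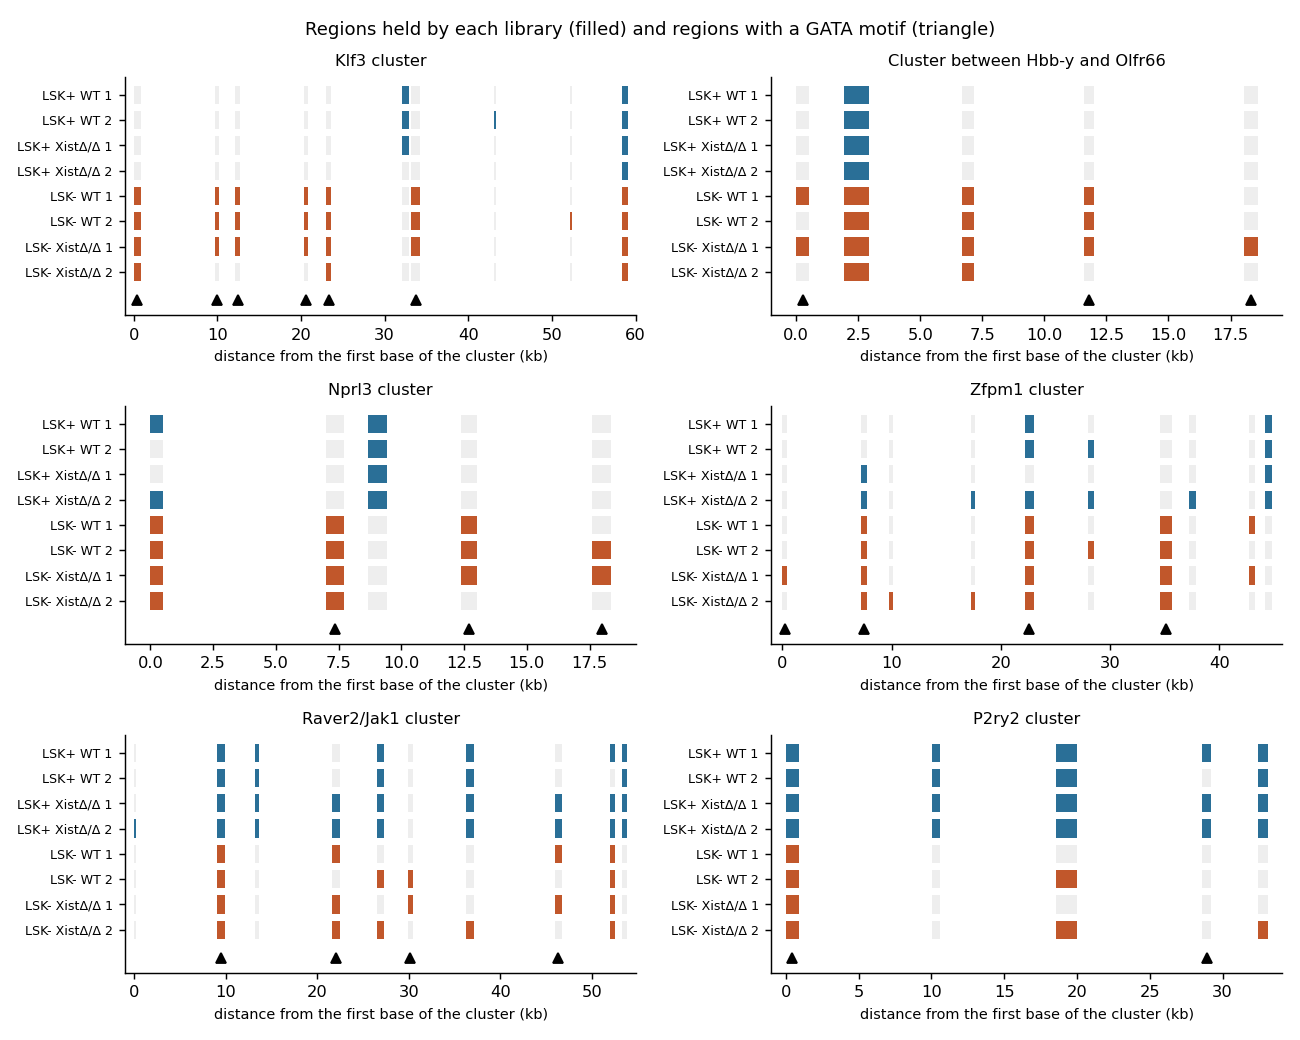
Regions of 6 clusters drawn to scale along the distance from each cluster's first base (x axis, kb), with 1 row per library. Filled boxes are regions the library holds, grey boxes regions it does not, and a triangle marks a region with a GATA match. In the Klf3 panel the 6 triangles stand under regions held by LSK− libraries alone.

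The GATA motif was searched in the 301 bases round the strongest summit of every region, along with 6 other motifs. It was found in 21.4% of cluster regions and 22.9% of other distal regions, and in 22.8% of all distal regions. Its share differed by who held the region. Of the 100 cluster regions held by all 4 LSK− and no LSK+ library, 56 (56%) had it, against 6 of the 62 (9.68%) held by all 4 LSK+ and no LSK− library and 17.9% of the 414 held by all 8. Other distal regions of these classes gave 61.8%, 9.75% and 17.2%, so the contrast was not particular to clusters. Per library, 15.0%, 15.4%, 15.7% and 14.8% of the cluster regions held by LSK+ had the motif. Those held by LSK− had it at 27.9%, 23.3%, 30.5% and 19.5%, all above the LSK+ range. In LSK− cells the replicate 2 library was the lower one in both genotypes.

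The ETS motif ran the other way. It was in 3 of the 100 LSK− cluster regions (3%), 6 of the 62 LSK+ ones (9.68%) and 13.5% of those shared by all 8. Other distal regions of these classes gave 3.99%, 12.7% and 12.8%. RUNX matches were in 42%, 33.9% and 40.1% of the cluster regions and in 38.4%, 39.1% and 39.4% of the others, and AP-1 matches in 16%, 14.5% and 11.8% against 10.4%, 16.1% and 14%. For both motifs the order of the LSK− and LSK+ classes in clusters was thus the reverse of that outside them. Over all cluster regions the shares were 35.6% for RUNX, 23.5% for the E-box, 13.2% for AP-1, 9.60% for ETS and 3.07% for C/EBP. Other distal regions gave 35.8%, 22.5%, 12.6%, 9.82% and 2.65%, and all distal regions 35.8%, 22.5%, 12.6%, 9.81% and 2.67%. The core motif of CTCF, the insulator protein, was in 5.09% of cluster regions against 6.31% of the others (6.24% of all), and its share was lower in clusters in 8 of 8 libraries. The E-box was higher in clusters in 8 of 8 libraries, though only by 24.3% against 24.2% in LSK+ WT replicate 2. The libraries share many regions, with 414 cluster regions held by all 8, so these counts of libraries are not independent. The median GC content was 50.8% against 48.8%. A match is a stretch of letters and not a shown binding site.

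**Figure D5:**
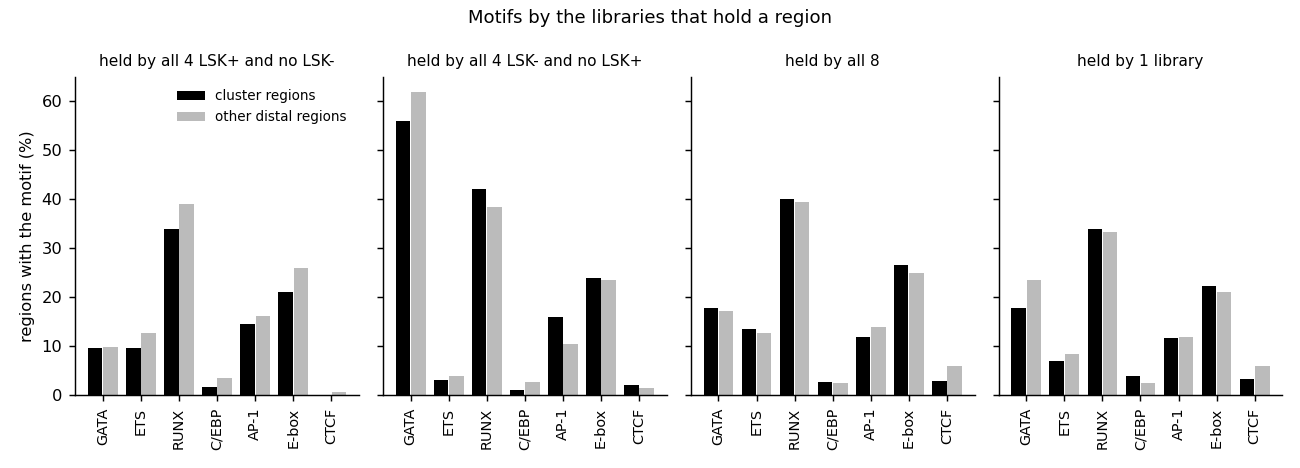
Percent of regions with each of 7 motifs (y axis) in 301-base windows, for regions held by all 4 LSK+ and no LSK− library, by all 4 LSK− and no LSK+ library, by all 8, and by 1 library. Black bars are cluster regions and grey bars other distal regions. The GATA bar stands at 56% in LSK− regions of clusters and at 9.68% in LSK+ ones.

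Region by region, the cell type contrast in clusters was near the background. In all, 1211 of the 36918 distal regions (3.28%) were held by all 4 LSK+ and no LSK− library, and 62 of them (2.98% of cluster regions) lay in 57 clusters. The reverse was found for 1480 distal regions (4.01%), of which 100 (4.80% of cluster regions) lay in 88 clusters. The surplus of LSK− over LSK+ regions was thus seen inside clusters and outside them, where the shares were 3.96% and 3.30%.

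Genotype did not separate clusters across both cell types. The 4 XistΔ/Δ libraries lay above the 4 WT libraries at 0 of 355 clusters (0%), and below them at 0 (0%). Without the library labelled LSK− XistΔ/Δ replicate 2 these numbers were 0 and 1 of 306 clusters. Region by region, 27 of the 36918 distal regions were held by all 4 XistΔ/Δ and no WT library (0.0731%) and 2 by all 4 WT and no XistΔ/Δ library (0.00542%), and 0 of either kind lay in a cluster. Within LSK+ cells, where 2 libraries stand against 2, XistΔ/Δ was above WT at 34 clusters (9.58%) and below at 13 (3.66%). Within LSK− cells it was above at 28 (7.89%) and below at 11 (3.1%). The deeper library of each pair was the XistΔ/Δ one, as given above.

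The Raver2/Jak1 cluster was the only 1 of 355 where XistΔ/Δ was above WT within each cell type. For comparison, XistΔ/Δ was above WT at 34 clusters (9.58%) within LSK+ and at 28 (7.89%) within LSK−. Whether the calls coincide more often than these shares would give was not tested. It lies at chr4:101146207-101200057, with 1 region in an intron of Raver2 and 9 in introns of Jak1, the kinase that signals from cytokine receptors. WT held 6 and 5 regions against 8 and 9 for XistΔ/Δ among LSK+, and 4 and 4 against 5 and 5 among LSK− libraries. The cell types differed there by 25 points, and 2 of its regions were held by all 4 LSK+ libraries alone. XistΔ/Δ was below WT within each cell type at 0 clusters.

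Of genes on lists of blood regulators, the list of stem cell regulators had 4 of 20 at a cluster, namely the transcription factors Erg and Fli1, their partner Lmo2, and Zfp36l2, which promotes decay of messenger RNA. Myeloid genes had 3 of 20 (Cebpb, Gfi1, Trib1), erythroid, megakaryocyte and mast cell genes 2 of 19 (Zfpm1, Hdc), lymphoid genes 2 of 20 (Ikzf1, Bach2) and surface receptors 2 of 20 (Cd47, Tgfbr2). Signalling, cycle and survival genes had 7 of 20 (Myc, Cdk6, Ccnd2, Ccnd3, Pim1, Socs3, Plcg2). Housekeeping genes, a comparison list, had 1 of 18 (Ywhaz), and 364 of all 20780 autosomal protein-coding genes (1.75%) were at a cluster. A gene counts as at a cluster when its body overlaps the span or, where no gene does, when its TSS is the closest. A second measure, chosen after the values were seen, counted every gene with a TSS within 100 kb of a cluster. It gave 7, 3, 7, 3, 2, 5 and 4 genes in these lists in the same order, against 1171 of all genes (5.64%). As shares these were 35%, 15%, 36.8%, 15%, 10%, 25% and 22.2%, with housekeeping genes above the myeloid, lymphoid and surface receptor lists. The lists were chosen with earlier results of these data known, so their shares are descriptions and carry no test.

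The values of these genes differed in how far the libraries spread. Lmo2, a bridging factor of the stem cell complex, had 5 regions 41453 bp from its TSS, held 1, 1, 1 and 2 times in LSK+ and 3, 1, 4 and 3 in LSK− libraries. Erg, an ETS factor of stem cells, had 6 regions held 3, 4, 3 and 3 times against 2, 4, 2 and 3, so the cell types overlapped. Cebpb, the emergency granulopoiesis factor, had 6 regions held 4, 6, 4 and 5 times against 4, 4, 3 and 5. Bach2, a lymphoid repressor, had 6 regions held 5, 4, 5 and 4 times in LSK+ and 3, 4, 3 and 2 in LSK−, which met at 4. Myc had 5 regions 218995 bp away, held 2, 0, 1 and 1 times in LSK+ and 1, 2, 4 and 2 in LSK−. Cdk6, the kinase that sets cycle entry of stem cells, had 5 intronic regions held 3, 0, 2 and 2 times against 3, 4, 3 and 4, which met at 3. Ccnd2, the D-type cyclin, had 6 regions held 4, 3, 5 and 5 times against 4, 5, 5 and 6. Ikzf1 was the only listed gene whose cluster separated the cell types without overlap, where 1.69% and 5.35% of all clusters did so.

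Promoters, which the rule did not use, had top peaks more often at genes with a cluster than at all protein-coding genes. Genes whose bodies hold other distal regions were not compared. Of the 235 genes whose body overlaps a cluster, 132 (56.2%) had a TSS-proximal region held by all 8 libraries, against 45.8% of all autosomal protein-coding genes. No library had one at 24 of them (10.2%), against 34.2% of all genes.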

How the data were processed

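ATAC-seq libraries were sequenced in 4 groups of 2. Per the labels and the study's methods, the authors trimmed reads with Trim Galore, aligned them to mm10 with Bowtie2 2.3.5.1, removed mitochondrial reads and those of mapping quality under 30 with SAMtools 1.10, and called peaks per library with MACS2 2.2.7.1 at q 0.01. A control, duplicate removal and a Tn5 shift are not given in the sources used here. The deposited peak lists give the summit fold, a ratio of fragment pileup to background, with −log10 p and −log10 q, and a score that the authors' caller derived from q. No read counts were used here. Background pileup was solved from fold and −log10 p, and the most common value of a list was taken as its depth.

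The lists were limited to 29829 peaks, merged, and annotated with GENCODE M21 in Python 3.11.15 with pandas 2.3.3. Differences in the share of regions held were tested by two-sided exact permutation within the other factor (SciPy 1.17.1), adjusted by Benjamini-Hochberg over 4 tests. A cluster separated groups when its counts did not overlap. The scripts were tested on simulated data. The regions named are the 20 largest clusters, the clusters that separated cell types, and list genes at clusters. Nprl3, Lyst and the Klf3 make-up were named after their values were seen. The members and gene lists were chosen with earlier results of these data known. Same-numbered libraries shared a platform in the study's sample list, and the correlation of their deviations from the group means ran from 0.0161 to 0.251. Of the marker genes of mature lineages, 2 are not reported here.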

Additional observations from a re-analysis of the deposited data

Results flagged for a closer look

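At 4 of 355 clusters the XistΔ/Δ libraries moved one way from WT in LSK+ cells and the other way in LSK− cells, without overlap in either. For comparison, XistΔ/Δ was above WT at 34 of the 355 (9.58%) and below at 13 (3.66%) within LSK+ cells. Within LSK− cells these numbers were 28 (7.89%) and 11 (3.1%). Neither the differences at the 4 clusters nor their number was tested. In LSK− cells each rests on the library labelled LSK− XistΔ/Δ replicate 2, without which 1 XistΔ/Δ library is left. At Ano1, a chloride channel, 5 regions were held 2, 2, 1 and 1 times in LSK+ and 2, 1, 3 and 3 times in LSK− libraries (WT before XistΔ/Δ), a change of −20 points in LSK+ and 30 points in LSK−, and −50 points between them. Ccr1, a chemokine receptor, had 8 regions held 3, 3, 4 and 4 times against 6, 5, 4 and 4, with changes of 12.5 and −18.75 points, 31.25 between them. Lpcat1, a phospholipid-remodelling enzyme, had 8 regions held 2, 2, 3 and 3 times against 5, 5, 4 and 4, with changes of 12.5 and −12.5 points, 25 between them. Tmem65 had 5 regions held 1, 1, 2 and 3 times against 3, 4, 2 and 2, with changes of 30 and −30 points, 60 between them.

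The X chromosome lay outside the clusters described. It held 739 distal regions in the same merged lists and 4 chains of 5 or more. At Elf4, an ETS factor of quiescence in stem cells, 6 regions (chrX:48424453-48445188) were held 2, 3, 2 and 3 times in WT and 4, 5, 5 and 5 times in XistΔ/Δ libraries. The mean was 2.25 regions higher in XistΔ/Δ (4.75 against 2.5), with no overlap, in libraries that were also the deeper ones. Without the library labelled LSK− XistΔ/Δ replicate 2 the XistΔ/Δ libraries held 4, 5 and 5, still above WT.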

How the results depend on the processing

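No test passed 0.05 after adjustment under any alternative run. With the replicate block, the pairing by platform, every difference was the same and each exact p was 0.125, the smallest it allows. The genotype difference in cluster regions held was −2.69 points when peaks were ranked by fold, and the cell type difference was 6.34 with the top 14914 peaks a list and 1.72 when holding needed peaks over 50% of a region. For the surplus over other distal regions, genotype gave −4.95 by fold and −0.196 without LSK− WT replicate 1, and cell type gave 4.17 with the top 14914. The cause was not tested. With all deposited peaks the genotype difference was 21.3 points and the cell type difference −9.60.

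The number of clusters was 12 with the top 14914, 4491 with all peaks, 35 at a 5 kb gap, 1303 at 20 kb, 31 at 8 or more regions and 230 with TSSs of all genes. Clusters with LSK+ higher numbered 1, 3, 0, 43, 1 and 2 under these, 2 by fold and 11 at 50% cover. Those with LSK− higher numbered 0, 119, 2, 94 and 5 under the first 5 of these, 11 by fold and 8 at 50% cover. XistΔ/Δ was higher at 175 with all peaks, 3 at 20 kb and 2 at 50% cover, and WT at 1 by fold and 1 at 20 kb. The 175 came from lists of unequal length, the XistΔ/Δ lists being the longer ones of their pairs.

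Leaving out each library in turn gave differences of 1.79 to 4.72 (genotype) and −5.94 to −3.44 points (cell type), surpluses of −0.196 to 5.25 and −7.32 to −2.16, and 296 to 340 clusters. With 1 library fewer on 1 side, LSK+ was higher at 6 to 13 clusters, LSK− at 19 to 30, XistΔ/Δ at 0 to 5 (5 without LSK− WT replicate 2) and WT at 0 to 1. Without clusters over 10 times a library's background, an alternative chosen after seeing the data, 329 clusters gave 6, 17, 0 and 0. Precision is limited by 2 libraries a group and by the unknown number of fragments behind a peak.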

Other observations

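Of the other 3 chains on the X chromosome, the one over Firre, a long noncoding RNA gene, was longer than any autosomal cluster by its number of regions, with 20 over 73.891 kb. LSK+ WT held 16 and 16 of them, LSK+ XistΔ/Δ 14 and 19, LSK− WT 13 and 16, and LSK− XistΔ/Δ 17 and 20, so the genotypes overlapped. The chain at 4933407K13Rik had 7 regions, held 1, 6, 2 and 4 times in WT and 2, 5, 4 and 5 times in XistΔ/Δ libraries. The chain over Xist and Tsix had 8 regions, held 4, 2, 2 and 2 times in WT and 1, 1, 4 and 1 times in XistΔ/Δ libraries.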
